A study of Homo sapiens with 36 samples.

Results

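Ribosome footprints were examined in WiT49, an established cell line from an anaplastic Wilms tumor, which is a cancer of the developing kidney. Cells were grown for 6 h with actinomycin D (actD) at 2 nM or with its vehicle DMSO, and each treatment has 3 footprint libraries. These 6 libraries, taken by their labelled assay, time and treatment, are among 36 in a series that also holds RNA libraries and later time points. The design names 1 cell line and 1 dose, and every library carries the same unmodified line, so treatment is the labelled difference between the groups. The labels do not say whether replicates came from separate cultures. Each p-value below thus sets a difference against the spread between libraries, which may not be that between cultures.

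Ribosome profiling digests cell lysates with a nuclease and sequences the short RNA pieces that a ribosome shields, so that counts on a coding sequence follow how many ribosomes were on it. Any other small RNA of similar size, such as a microRNA, a small nucleolar RNA (snoRNA) or a piece of ribosomal RNA (rRNA), can enter the same small RNA library. Actinomycin D binds DNA and blocks transcription, and at low doses it is known above all for stopping RNA polymerase I, the enzyme that makes the precursor of rRNA. SnoRNAs guide methylation (box C/D) or pseudouridylation (box H/ACA) of rRNA, and most human snoRNAs are cut from introns of host genes. MicroRNAs guide Argonaute proteins to messenger RNAs through their seed, bases 2 to 8 from the 5′ end.

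The libraries were shallow and most of their counts lay outside protein-coding genes. Total gene counts were 1281039, 438069 and 363273 in actD replicates 1 to 3 and 478098, 697435 and 466747 in DMSO replicates 1 to 3. Protein-coding genes received 27153, 23134 and 46597 of these counts with actD and 94447, 58751 and 23908 with DMSO. The mean protein-coding count was 32300 ± 12500 (SD, n = 3) with actD and 59000 ± 35300 (SD, n = 3) with DMSO, groups that overlapped (exact permutation p = 0.3, two-sided). Between 2918 and 7748 protein-coding genes had any count in a library, with a median of 3 to 4 counts each. A count of 0 allows up to 3 counts, which is 3.06 to 7.94 CPM (counts per 1e6, scaled throughout by edgeR's TMM factors), and this limit covers counting error only.

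The share of protein-coding counts was 2.12%, 5.28% and 12.8% in actD replicates 1 to 3 and 19.8%, 8.42% and 5.12% in DMSO replicates 1 to 3. MicroRNA genes held 71.4%, 58.5% and 16.1% with actD and 4.67%, 45.1% and 60.8% with DMSO. The libraries that stood apart were actD replicate 3 and DMSO replicate 1, in which microRNA genes held 16.1% and 4.67% of counts while the other 4 libraries lay between 45.1% and 71.4%. SnoRNA genes held 0.844%, 0.675% and 1.37% with actD and 1.19%, 0.927% and 0.587% with DMSO. Ribosomal RNA genes held 5.57%, 6.99% and 4.99% with actD and 4.33%, 8.01% and 10.7% with DMSO. Spliceosomal small nuclear RNA (snRNA) genes held between 6.18% and 32.2%, with the 2 highest shares again in actD replicate 3 and DMSO replicate 1. The widest 95% Wilson interval on any of these class shares was 0.16 percentage points to either side, so counting error was small beside the spread between replicates.

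The annotation understates rRNA. A group of 4 lincRNA genes on chromosome 21 (FP236383.2, FP236383.3, FP671120.3 and FP671120.4) lie inside 18S rRNA sequence and held 4.64% to 33.6% of a library. Adding these genes, the rRNA pseudogenes and the rRNA genes gave 14.4%, 21.6% and 39.9% rRNA by position with actD and 32%, 22% and 24.6% with DMSO. The means were 25.3% ± 13.1 and 26.2% ± 5.18 (SD, n = 3 each), with an exact permutation p of 0.9.

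No class share separated the treatments. The protein-coding share was 6.74% ± 5.50 with actD and 11.1% ± 7.67 with DMSO (SD, n = 3, exact permutation p = 0.6, two-sided). The microRNA share was 48.7% ± 28.9 and 36.9% ± 29 (exact permutation p = 0.6), the snoRNA share 0.964% ± 0.364 and 0.902% ± 0.303 (p = 0.8), and the rRNA share 5.85% ± 1.03 and 7.67% ± 3.19 (p = 0.5), with n = 3 in each group. All 14 classes compared overlapped, each with an adjusted p of 1, and 3 against 3 libraries cannot give an exact permutation p under 0.1. Footprint libraries of the series at 72 h had 1.18% to 5.89% of counts in microRNA genes and those at 2 weeks 1.87% to 8.65%, below 5 of the 6 libraries at 6 h.

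**Figure D1:**
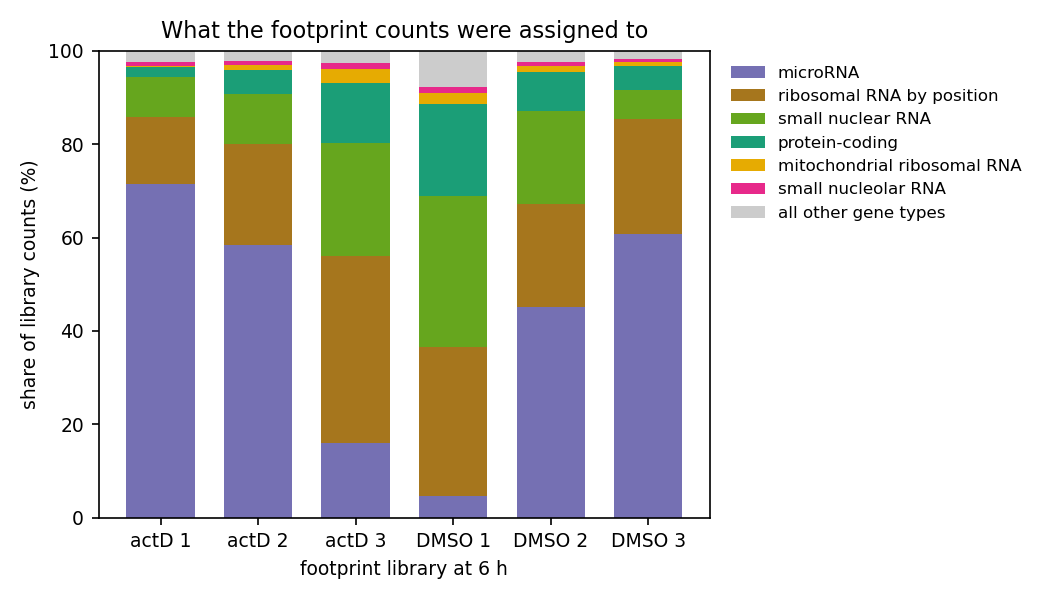
Percent of all gene counts (vertical axis) held by each class of gene, as 1 stacked bar for each of the 6 footprint libraries at 6 h. The microRNA share is 16.1% in actD replicate 3 and 4.67% in DMSO replicate 1, against 45.1% to 71.4% in the other 4 libraries.

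The libraries differed both in their total of microRNA counts and in its make-up. MIR6087 and MIR1246 together held 76% of the microRNA counts of DMSO replicate 1 (8683 and 8277 of 22310) and 17.5% of those of actD replicate 3, against 0.769% to 4.97% in the other 4 libraries. Log CPM of the 186 microRNA genes tested correlated between pairs of libraries with r from 0.759 to 0.968 across genes, which are not independent replicates. The microRNA gene with the most counts, MIR148A, had 202808, 94733 and 15190 counts with actD and 1657, 67695 and 120787 with DMSO. The let-7a gene MIRLET7A1 had 52301, 6885 and 1540 counts with actD and 156, 12446 and 6237 with DMSO. Both were lowest in DMSO replicate 1 and, among the actD libraries, in actD replicate 3. Log2 fold changes were 0.79 ± 1.64 (SE) for MIR148A and 1.99 ± 1.80 for MIRLET7A1, with overlapping groups (edgeR adjusted p = 0.889 for each). Of 186 microRNA genes tested, 184 had a fold change above 0 and none had groups that did not overlap. Without actD replicate 1 that number was 103 of 195 with a median log2 fold change of 0.04, against 1.36 with all 6 libraries, so the direction rested on that library. Without DMSO replicate 1 it was 172 of 205 with a median of 0.39.

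The microRNAs below are mature forms of the microRNA genes with the most counts, except miR-25-3p and miR-1246, which were added by choice. They are shown for their seeds. The lists of let-7 genes and of cluster genes below were set by name and by cluster, not by seed. Gene counts do not tell the 2 arms of a hairpin apart, and the arm printed is the one usually more abundant. Sequences are from RefSeq on GRCh38.p14, 5′ to 3′, with the seed in capitals, and 10 of 12 microRNA genes looked up had a match (MIR6087 and MIR10B did not).
miR-148a-3p: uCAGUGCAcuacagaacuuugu
let-7a-5p: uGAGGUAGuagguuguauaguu
miR-183-5p: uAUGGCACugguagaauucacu
miR-21-5p: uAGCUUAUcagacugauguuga
miR-92a-3p: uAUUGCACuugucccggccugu
miR-25-3p: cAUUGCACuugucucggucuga
miR-27b-3p: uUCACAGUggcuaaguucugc
miR-1246: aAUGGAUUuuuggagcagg

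The mature miR-148a-3p lies at chr7:25949922-25949943 on the minus strand. The let-7a sequence is the same in MIRLET7A1, MIRLET7A2 and MIRLET7A3, so their counts cannot be assigned to 1 locus. miR-92a-3p and miR-25-3p share the seed AUUGCAC and come from the miR-17-92 cluster and its paralogs, which act in cell proliferation. The 15 genes of those clusters held 7.68%, 7.24% and 5.89% of microRNA counts with actD and 2.00%, 9.36% and 7.69% with DMSO. The 12 let-7 genes, known as brakes on growth genes, held 22.6%, 11% and 11.6% with actD and 3.27%, 17.3% and 9.58% with DMSO. In both lists DMSO replicate 1 was lowest and the treatments overlapped.

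A pair of microRNA genes did not follow the others. MIR6087 had 5400, 4826 and 8839 counts with actD and 8683, 9992 and 6349 with DMSO, and was not scarce in actD replicate 3 or DMSO replicate 1. MIR1246 had 1630, 718 and 1414 counts with actD and 8277, 5661 and 1081 with DMSO, a log2 fold change of -1.14 ± 0.86 (SE) with overlapping groups. The 19 bases of miR-1246 printed above occur whole in 7 of 71 genes named for U2 snRNA, among them RNU2-33P and RNU2-7P, so reads of the U2 RNA and of miR-1246 share sequence. RNU2-33P had 21598, 7581 and 18604 counts with actD and 38452, 30183 and 4009 with DMSO, the same order of libraries within each treatment as MIR1246. These 2 genes were singled out after their values were seen.

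The comparison of treatments gene by gene asked which footprint counts differed between actD and DMSO at 6 h. Values are relative within a library, so a change shared by all footprints would not be seen. Of 1212 genes tested with edgeR's quasi-likelihood test, 0 passed an adjusted p under 0.05 (0% called), and the smallest adjusted p was 0.889. At an unadjusted p under 0.05 there were 38 genes (3.14%), 15 higher with actD (1.24%) and 23 lower (1.9%). With library totals in place of TMM factors, 0 of the 1212 were higher and 21 lower at that threshold. DESeq2, run as an alternative on the same counts, called 10 genes (0.825%), 5 higher and 5 lower. All 5 lower ones were protein-coding: THRAP3, TJP1, MKI67, CKAP5 and MSH6. The 5 higher ones were noncoding: SNORD63, SNORA53, SNORD27, SNORD37 and RMRP. In TMM-scaled CPM the groups did not overlap for 114 genes (9.41%), of which 45 were higher with actD (3.71%) and 69 lower (5.69%). Among the 810 protein-coding genes tested 62 stood apart below DMSO (7.65%) and 21 above it (2.59%).

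The genes described next are the 10 lower and the 10 higher with the smallest unadjusted p among those with separate groups and a mean of at least 20 counts. They were chosen by this contrast, so their footprint values describe them and are no test. All 20 had an edgeR adjusted p of 0.889, and all kept their direction in every alternative that tested them. Separate groups keep their order when libraries are left out, apart from rescaling. Direction under those alternatives was thus largely fixed by the choice of genes.

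Among the lower genes, MKI67 encodes Ki-67, a protein of dividing cells that coats mitotic chromosomes. It lies at chr10:128096659-128126385 (GRCh38) and had 16.5, 31.8 and 40.5 CPM with actD against 90.8, 100 and 147 CPM with DMSO. Every DMSO library was above every actD library, and in bulk libraries fewer dividing cells and fewer footprints per cell cannot be told apart. The log2 fold change was -1.92 ± 0.50 (SE; DESeq2 adjusted p = 0.00842). CKAP5, a microtubule polymerase of the mitotic spindle, had 47.5, 60.9 and 33.7 CPM with actD and 164, 164 and 163 CPM with DMSO. Its DMSO libraries were nearly equal although they differed in depth and microRNA share, and its log2 fold change was -1.78 ± 0.46 (SE; DESeq2 adjusted p = 0.00183). MSH6, a protein of DNA mismatch repair, had 33.1, 60.9 and 51.7 CPM with actD and 182, 153 and 121 CPM with DMSO. The gene lies at chr2:47695530-47810101, and the log2 fold change was -1.64 ± 0.48 (SE; DESeq2 adjusted p = 0.00589).

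TJP1, the tight junction scaffold ZO-1, had 20.7, 13.2 and 15.7 CPM with actD and 53, 51.9 and 52.5 CPM with DMSO. These values rest on 5 to 10 counts in the actD libraries and 20 to 52 in the DMSO libraries. THRAP3, a protein linked to splicing and transcription, had 5 counts in each actD library and 49, 48 and 11 in the DMSO libraries. Its mean was 11.6 ± 1.49 CPM with actD and 47.1 ± 16.9 CPM with DMSO (SD, n = 3). For both genes DESeq2 gave an adjusted p of 0.0262, and a handful of counts decides each actD value.

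The other 5 lower genes had different roles in the cell. CHD4, the ATPase of the NuRD chromatin remodelling complex, had 30, 42 and 17 counts with actD and 244, 153 and 89 with DMSO, or 70.5 ± 37.2 CPM against 227 ± 25.7 CPM (SD, n = 3). CLTC, the clathrin heavy chain of coated vesicles, had 39.3, 74.1 and 40.5 CPM against 161, 93.5 and 160 CPM. Both had separate groups, and CLTC had the narrower gap. TLN1, talin, ties integrins to the actin skeleton and had a mean of 16.1 ± 6.22 CPM against 51.3 ± 9.62 CPM (SD, n = 3). DHX15, a helicase that takes spliceosomes apart, had 30.1 ± 6.73 CPM against 70.9 ± 11.8 CPM. CTGF, a secreted matrix protein and an early response gene, had 15.3 ± 10.2 CPM against 62.2 ± 26.0 CPM, from 4, 4 and 12 counts with actD.

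**Figure D2:**
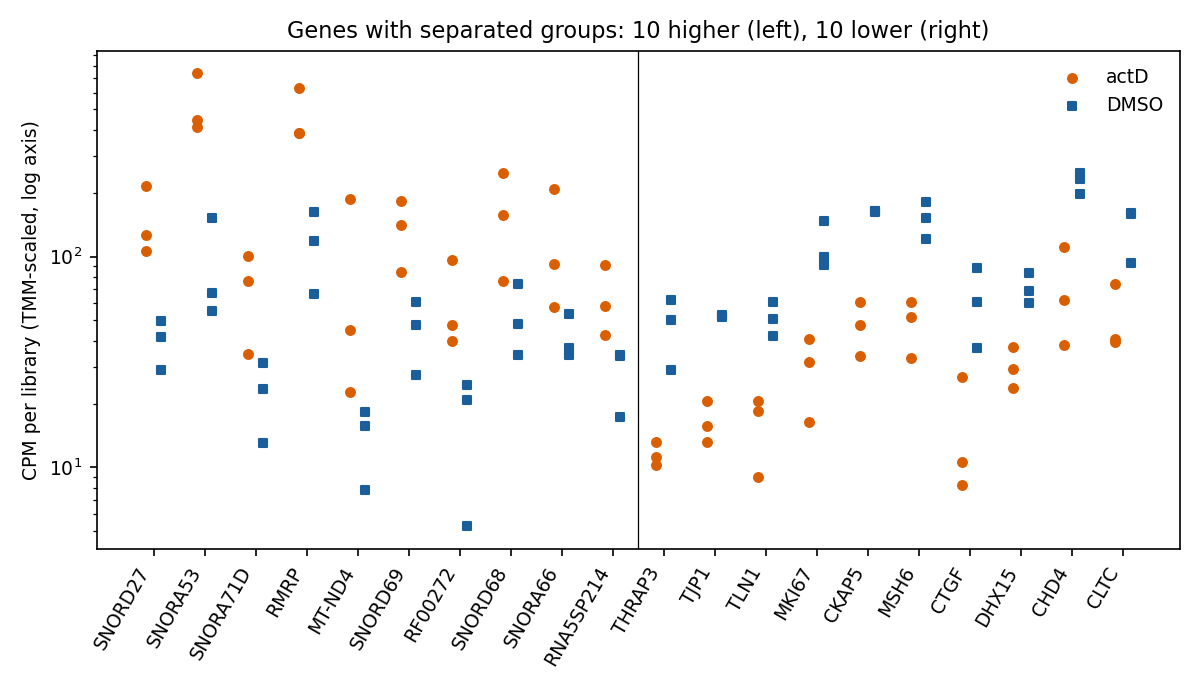
TMM-scaled CPM of each of the 6 footprint libraries (log axis; points colored by treatment) for the 10 higher and the 10 lower genes with separate groups. MKI67 sits between 16.5 and 40.5 CPM with actD and between 90.8 and 147 CPM with DMSO, and SNORA53 shows the opposite order.

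The 10 lower genes were then read in libraries that did not choose them. In RNA libraries of the same treatments at 6 h, 9 of the 10 had a log2 fold change below 0, where 56.6% of the 806 protein-coding genes tested in both assays did. Of the 10 genes 7 were lower at an unadjusted p under 0.05, against 8.93% of the 806. edgeR called 0 of 22669 genes in RNA (0% called), and 1862 had an unadjusted p under 0.05 (8.21%), while DESeq2 called 197 (0.869%). CKAP5 RNA had a log2 fold change of -0.97 ± 0.15 (SE; edgeR adjusted p = 0.122), TLN1 -0.94, CHD4 -0.86 and CLTC -0.71. MSH6 was the exception, with an RNA log2 fold change of 0.30 ± 0.20 (SE). In footprint libraries after 72 h of actD, 9 of the 10 were tested and 8 had a log2 fold change below 0 (65.3% of the 782 protein-coding genes tested at both times did). Of these, MSH6 fell by 3.04 on the log2 scale (edgeR adjusted p = 0.047), and CKAP5 likewise fell by 3.04 and CHD4 fell by 2.84 (edgeR adjusted p = 0.0473 for each). These are 3 of 9 genes, against 4.73% of the 782 called lower at 72 h, and 7 of the 9 had an unadjusted p under 0.05 and a negative fold change, against 23.5% of the 782.

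MSH6 also had the footprint change least like its RNA change among the lower genes. Its translational efficiency, the footprint change relative to the RNA change, was -1.95 on the log2 scale. The interaction test in edgeR gave an adjusted p of 0.202 over 951 genes, of which 0 were called (0%) and 50 had an unadjusted p under 0.05 (5.26%). DESeq2 called MSH6 alone (log2 value -1.97, adjusted p = 0.000546), and edgeR called it without actD footprint replicate 2 (-2.28, adjusted p = 0.0361). Since MSH6 was chosen for its footprint value, its interaction value shares that choice.

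Among the higher genes 7 of 10 were snoRNAs, against 49 of all 1212 genes tested. SNORA53, a box H/ACA snoRNA within SLC25A3 at chr12:98599635-98599883, had 740, 413 and 443 CPM with actD and 55.1, 67.5 and 152 CPM with DMSO. Its log2 fold change was 2.54 ± 0.74 (SE; DESeq2 adjusted p = 0.0081), and its RNA was also higher, with 329, 219 and 361 counts against 127, 119 and 121 (log2 fold change 1.39, edgeR adjusted p = 0.176). SNORD27, a box C/D guide for 18S rRNA within SNHG1, had 105, 40 and 56 counts with actD and 41, 38 and 11 with DMSO, or 150 ± 59.2 CPM against 40 ± 10.4 CPM (SD, n = 3). Its RNA log2 fold change was -0.21. Unscaled, it held 0.0082%, 0.00913% and 0.0154% of footprint counts with actD and 0.00858%, 0.00545% and 0.00236% with DMSO. These shares overlapped, as did those of SNORA71D, so the separate groups of both genes rested on the TMM factors. RMRP, the RNA of the ribonuclease that cuts the rRNA precursor, had 632, 386 and 387 CPM with actD against 66.3, 119 and 163 CPM with DMSO, with an RNA log2 fold change of -0.02. SNORA71D, SNORD69, RF00272, SNORD68 and SNORA66 had log2 fold changes of 1.53 to 1.80. The 5S pseudogene RNA5SP214 had one of 1.18. Of the 10 higher genes 8 were tested in RNA at 6 h. There 2 of the 8 had a log2 fold change above 0, against 12021 of all 22669 genes tested. Their RNA median was -0.13, and 0 were called.

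The last of the 10 was MT-ND4 (chrM:10760-12137), a subunit of respiratory complex I made on mitochondrial ribosomes. It had 22.7, 188 and 45 CPM with actD and 18.4, 7.79 and 15.7 CPM with DMSO. actD replicate 2 was far above the others, and the lowest actD value, 22.7 CPM, lay close to the highest DMSO value, 18.4 CPM.

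The RNAs behind the higher group are short and structured, and 4 are printed as DNA from GENCODE release 29 on GRCh38 because they show the boxes by which the 2 kinds are told apart. In the first 3 the capitals mark TGATGA, a form of box C, and CTGA, box D. In the last they mark the ACA that stands 3 bases before the 3′ end of box H/ACA snoRNAs.
SNORD27: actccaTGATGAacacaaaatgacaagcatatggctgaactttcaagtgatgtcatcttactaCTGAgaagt
SNORD68: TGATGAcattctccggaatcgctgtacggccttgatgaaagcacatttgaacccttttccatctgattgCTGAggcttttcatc
SNORD69: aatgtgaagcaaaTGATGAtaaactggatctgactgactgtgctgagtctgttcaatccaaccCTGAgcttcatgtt
SNORA66: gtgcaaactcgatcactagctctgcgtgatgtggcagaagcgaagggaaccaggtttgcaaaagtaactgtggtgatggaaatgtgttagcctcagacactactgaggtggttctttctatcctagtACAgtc

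SNORD27 lies at chr11:62855012-62855083 on the minus strand, SNORD68 at chr16:89561434-89561517 within RPL13, SNORD69 at chr3:52692736-52692812 in an intron of GNL3, and SNORA66 at chr1:92840719-92840851 in an intron of RPL5. The letters TGATGA followed by CTGA, read on the transcript's strand, occur in 212 of 278 genes named SNORD (76.3%), in 1 of 147 named SNORA and in 31.6% of all 943 snoRNA genes. ACA 3 bases from the end occurs in 75.5% of the 147 SNORA genes and in 29.7% of all. Of the genes tested here, 20 of 25 SNORD (80%) and 16 of 21 SNORA (76.2%) held the letters of their kind, shares close to those of all genes so named.

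Most of the snoRNAs tested had a fold change above 0. Only 49 of 943 snoRNA genes passed the filter on low counts, so the numbers that follow describe these 49. Of them 45 had a log2 fold change above 0, against 56.8% of all genes tested, and the median was 1.24 against 0.11 for all. Separate groups were seen in 15 that were higher and 2 that were lower, against 3.71% and 5.69% of all 1212 genes, and 0 passed the test after adjustment. By kind, 21 of 21 SNORA genes (median 1.29) and 21 of 21 SNORD genes other than U3 (median 1.05) were above 0. A looser filter on counts gave 54 of 61 SNORA and 65 of 72 such SNORD genes above 0. A stricter one gave 20 of 20 and 20 of 22. For SNORD genes the direction was less firm: without actD replicate 1 it was 14 of 23 with a median of 0.46, and with library totals 11 of 21 with a median of 0.01, where that of all genes was -0.61. For SNORA genes it was 22 of 24 (1.26) and 15 of 21 (0.72) under the same alternatives. Of the 49, 43 lay inside another gene on the same strand, 30 of them inside a protein-coding gene. All 43 were above 0, from 0.23 to 2.54, and 14 had separate groups above DMSO, against 3.71% of all genes tested. SNORD62A and SNORD62B had equal counts in every library, so they count as 1 measurement.

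The hosted snoRNAs depended on single libraries in degree but less in direction. Without actD replicate 1, 33 of 43 were above 0 with a median of 0.94. Without the 2 libraries that stood apart, 37 of 42 were above 0 with a median of 0.53, against -0.17 for all genes tested. With library totals in place of TMM factors 27 of 43 were above 0, and the median was 0.39 while that of all genes moved to -0.61. In RNA libraries the same genes showed no such shift as a set: 29 of the 43 were tested, 13 were above 0 and their median was -0.05. Single members did differ there, as 7 of the 29 had an unadjusted p under 0.05, against 8.21% of all genes in RNA, and 0 were called. SNORD63 within HSPA9 illustrates the group, with 384, 379 and 598 CPM with actD and 217, 171 and 181 CPM with DMSO and an RNA log2 fold change of -0.10. SNORD37 within EEF2 had 60, 42 and 75 counts with actD and 64, 54 and 24 with DMSO, or 135 ± 30.1 CPM against 66.1 ± 3.66 CPM (SD, n = 3), with an RNA log2 fold change of -0.18. With the microRNA share of each library as a covariate, 43 of 43 were above 0 with a median of 1.23.

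SNORA73B shows how 1 library can carry a fold change. It had 2333, 77 and 60 counts with actD and 27, 527 and 92 with DMSO, a log2 fold change of 2.44 that was -0.94 without actD replicate 1. Its RNA counts were 5128, 3948 and 5894 with actD and 2397, 2198 and 2238 with DMSO (edgeR adjusted p = 0.0982), where the groups were separate.

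The 4 genes of the U3 snoRNA, which has no host gene and acts in the first cuts of the rRNA precursor rather than as a modification guide, went the other way. SNORD3B-1 had 167, 201 and 94.4 CPM with actD and 229, 262 and 779 CPM with DMSO. SNORD3B-2 had 380, 212 and 96.6 CPM with actD and 407, 473 and 590 CPM with DMSO. Both had separate groups, with log2 fold changes of -1.45 ± 0.77 and -1.09 ± 0.74 (SE). SNORD3A and SNORD3C had log2 fold changes of -0.77 and -0.94 with overlapping groups. All 4 were below 0 in every alternative except SNORD3A without DMSO replicate 3, at 0.05. These copies are nearly alike, so the split of counts among them is uncertain and they are not 4 independent measurements. In RNA all 4 were above 0 with a median of 0.33.

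**Figure D3:**
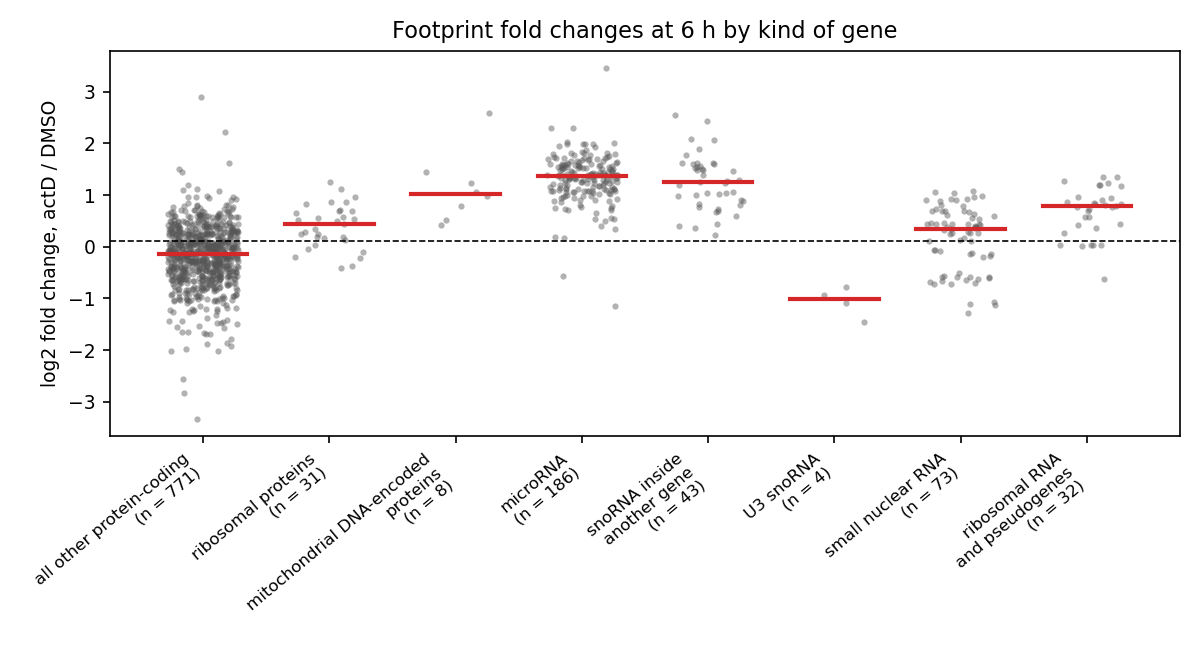
Log2 fold change, actD over DMSO, of each footprint gene tested (points) by kind of gene, with the median as a red bar and the median of all genes tested, 0.11, as a dashed line. The 43 hosted snoRNAs all lie above 0 and the 4 U3 genes below it. Protein-coding genes are split over separate columns, and the median of all 810 of them together is -0.12.

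Of 22 long noncoding host RNAs listed for snoRNAs, 20 had a count in some library but only 2 passed the filter. GAS5, which hosts box C/D snoRNAs and whose spliced RNA carries a short reading frame, had 3050, 964 and 1350 CPM with actD and 263, 751 and 76.1 CPM with DMSO. The groups were separate, with a log2 fold change of 2.30 ± 1.11 (SE; edgeR adjusted p = 0.889), and the RNA log2 fold change was 0.05. Counts on its spliced RNA and on the snoRNAs inside it cannot be told apart in a gene-level table. SNHG5, the only other host gene tested of 22 listed, had 105, 7.94 and 42.7 CPM against 23.5, 37.7 and 2.62 CPM, and its groups overlapped.

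As a list, other structural RNAs, among them RMRP, lay above all genes by less than their replicate spread (0.33 against 0.91). Of 26 such RNAs 17 were tested and 15 were above 0, with a median log2 fold change of 0.44 against 0.11 for all genes (8 of 17 and -0.18 with library totals, against -0.61). Separate groups were seen in 3 that were higher and 0 that were lower, against 3.71% and 5.69% of all genes, and 0 were called. Without actD replicate 3, 12 of 17 were above 0 with a median of 0.17, where all genes had -0.10. Without DMSO replicate 1 it was 10 of 17 with 0.27, where all genes had -0.01. RPPH1, the RNA of ribonuclease P, had 5860, 3890 and 12800 CPM with actD and 7170, 6210 and 3150 CPM with DMSO. Of 32 rRNA genes and pseudogenes tested 31 were above 0 with a median of 0.78, but 8 of 32 with a median of -0.30 without actD replicate 1 and 14 of 34 with -0.01 without DMSO replicate 1. The 5.8S rRNA copies, named RNA5-8SN2, had log2 fold changes of 0.03, with 9685, 5501 and 4068 counts with actD and 4117, 10294 and 9616 with DMSO in the first copy. RNU12, the U12 snRNA of the minor spliceosome, was listed at 0 in DMSO replicate 1 and had 5947 to 15667 counts elsewhere. In that library the overlapping gene Z93241.1 had 18731 counts, against at most 8 in the other 5, so the 2 genes are uncertain. Of 73 snRNA genes tested 47 were above 0 with a median of 0.35. With library totals 8 were above 0 with a median of -0.66, where all genes had -0.61. Without actD replicate 1 it was 35 of 81 with a median of -0.12, and without DMSO replicate 1 it was 34 of 75 with -0.01.

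Protein-coding footprints were examined by lists of genes that bear on nucleolar stress and protein turnover. Of the 810 protein-coding genes tested, 331 (40.9%) had a log2 fold change above 0, and the median was -0.12. With library totals in place of TMM factors 52 were above 0, with a median of -0.85 against -0.61 for all genes tested. Of 47 large-subunit ribosomal protein genes 19 were tested, 14 were above 0 and the median was 0.44. Of 32 small-subunit genes 12 were tested, 11 were above 0 and the median was 0.50. None of the 31 passed the test after adjustment. These lists held 2.30%, 1.41% and 1.72% (large) and 1.38%, 0.955% and 1.44% (small) of protein-coding counts with actD. With DMSO they held 1.17%, 1.54% and 1.31%, and 0.725%, 0.888% and 1.05%. The treatments overlapped in both, and without the 2 libraries that stood apart the medians were -0.16 (4 of 16 above 0) and -0.24 (2 of 12 above 0). All genes tested had -0.17 there, so the lists differed from all genes by 0.003 and -0.08, against 0.33 and 0.39 as reported. The shift above all genes was thus not seen without those libraries. Without actD replicate 3 alone the medians were 0.17 (12 of 20) and -0.16 (5 of 13), where all genes had -0.10. With library totals in place of TMM factors, where the median of all genes was -0.61, the 2 medians were -0.31 and -0.07.

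RPS13 had 67, 42 and 100 counts with actD and 65, 70 and 55 with DMSO, or 158 ± 59.3 CPM against 100 ± 39.9 CPM (SD, n = 3). RPL5, a ribosomal protein known for binding MDM2 outside the ribosome, had 101, 82.1 and 166 CPM against 87.7, 93.5 and 52.5 CPM. Both overlapped between treatments. RPL3, a core protein of the large subunit, had a mean of 113 ± 30.6 CPM with actD and 103 ± 27 CPM with DMSO (SD, n = 3), a difference within the spread.

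Translation factors, 16 tested of 38, had 4 above 0 and a median of -0.31. Without actD replicate 1 it was 9 of 19 with a median of -0.15, and without both libraries that stood apart 1 of 15 with -0.58, where all genes had -0.17. EEF2, the factor that moves the ribosome along, had 205, 304 and 279 CPM with actD and 561, 373 and 273 CPM with DMSO, with DMSO replicate 3 among the actD values. EEF1A1, which brings transfer RNA to the ribosome, was listed at 0 in actD replicates 1 and 2 and had 59 counts in actD replicate 3, with 16, 44 and 26 with DMSO. Every growing cell uses this factor, so it is given here only as listed. EEF1A1 was also the only call when actD replicate 3 and DMSO replicate 1 were left out (edgeR adjusted p = 0.00333), which rests on those 0 values.

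Proteasome subunits are of interest because the series title names proteasome inhibition. Of 33 subunits 30 had a count but only 8 passed the filter, 6 of them above 0, with a median log2 fold change of 0.30. Without actD replicate 3 it was 4 of 9 with a median of -0.04, and without both libraries that stood apart 1 of 8 with -0.15. With library totals it was 1 of 8 with -0.31, where the median of all genes was -0.61. The sign of the list median was not stable, but the median of all genes moved as well. Minus that of all genes, the list median was 0.19 as reported and 0.30 with library totals. It was 0.06 without actD replicate 3 and 0.02 without both libraries. These differences lay within the list's replicate spread of 0.33. As a list the subunits held 0.714%, 0.566% and 0.811% of protein-coding counts with actD and 0.608%, 0.582% and 0.527% with DMSO. PSMB5, the subunit with chymotrypsin-like activity, had 31.0, 37.1 and 74.2 CPM with actD and 43.8, 35.1 and 26.2 CPM with DMSO. PSMA3 had 53.7, 31.8 and 65.2 CPM against 22.4, 27.3 and 44.6 CPM. Neither separated the treatments, and 0 of the 8 was called.

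Targets of p53, the pathway that nucleolar stress is known to engage, could not be tested in the footprints. Of 26 targets 16 had a count in some library and none passed the filter. Together they had 10, 21 and 49 counts with actD and 85, 43 and 0 with DMSO, or at most 0.105% of protein-coding counts, so a difference was not detectable at this depth.

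Factors of ribosome assembly had 6 of 14 tested genes above 0 and a median of -0.10. Without actD replicate 1 it was 9 of 16 with a median of 0.09, and without actD replicate 2 it was 5 of 16 with -0.60. NCL, nucleolin, the abundant nucleolar protein that is itself a host of SNORD20 and SNORA75, had 405, 635 and 589 CPM with actD and 1310, 743 and 551 CPM with DMSO. The groups overlapped because DMSO replicate 3 was low, while both snoRNAs in its introns were above 0, at 1.78 and 1.39. Chaperones (6 of 18 above 0, median -0.20), glycolytic enzymes (2 of 8, -0.12), cytoskeleton genes (9 of 17, 0.05) and splicing proteins of the hnRNP and SR families (8 of 21, -0.08) had medians between -0.20 and 0.05. These medians also moved with single libraries: that of the chaperones was -0.01 without actD replicate 1 and that of the cytoskeleton genes -0.26 without actD replicate 3. KRT8, a keratin of simple epithelia, had 151, 217 and 382 CPM with actD and 1000, 291 and 462 CPM with DMSO, and ENO1, enolase, 82.7, 74.1 and 121 CPM against 270, 227 and 63.0 CPM. In each gene 1 DMSO library lay among or below the actD values. Immediate-early genes and genes linked to ATF4 had 3 tested members each, with 1 and 2 above 0.

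Genes of mitochondrial DNA, which are translated inside mitochondria, had the highest median among the lists of protein-coding genes. All 8 tested of 13 encoded by mitochondrial DNA had a log2 fold change above 0, with a median of 1.02, and in RNA 0 of the 8 were above 0, with a median of -0.14. MT-ND5 had 384, 209 and 65.2 CPM with actD and 25.5, 85.7 and 205 CPM with DMSO. MT-CO1, the core of cytochrome oxidase, had 345, 217 and 56.2 CPM against 28.6, 97.4 and 189 CPM. Both were lowest in actD replicate 3 and DMSO replicate 1, the 2 libraries with the fewest microRNA counts. The list held 2.92%, 1.72% and 0.264% of protein-coding counts with actD and 0.125%, 0.589% and 1.49% with DMSO. Without those 2 libraries 7 of 8 were above 0 with a median of 0.56, and with library totals 6 of 8 with a median of 0.30. Without DMSO replicate 1 alone it was 6 of 9 with a median of 0.23, and without actD replicate 1 alone 8 of 9 with 0.38. MT-ND6 was listed at 0 in DMSO replicate 1 and MT-CYB in 3 of the 6 libraries.

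Nuclear genes with many protein-coding counts, MTRNR2L12, MTRNR2L8 and MTRNR2L1, are copies of mitochondrial 16S rRNA. Genes of this family took 4.77% to 13.2% of protein-coding counts, and their reads cannot be told from those of MT-RNR2, so they are not read as translation.

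**Figure D4:**
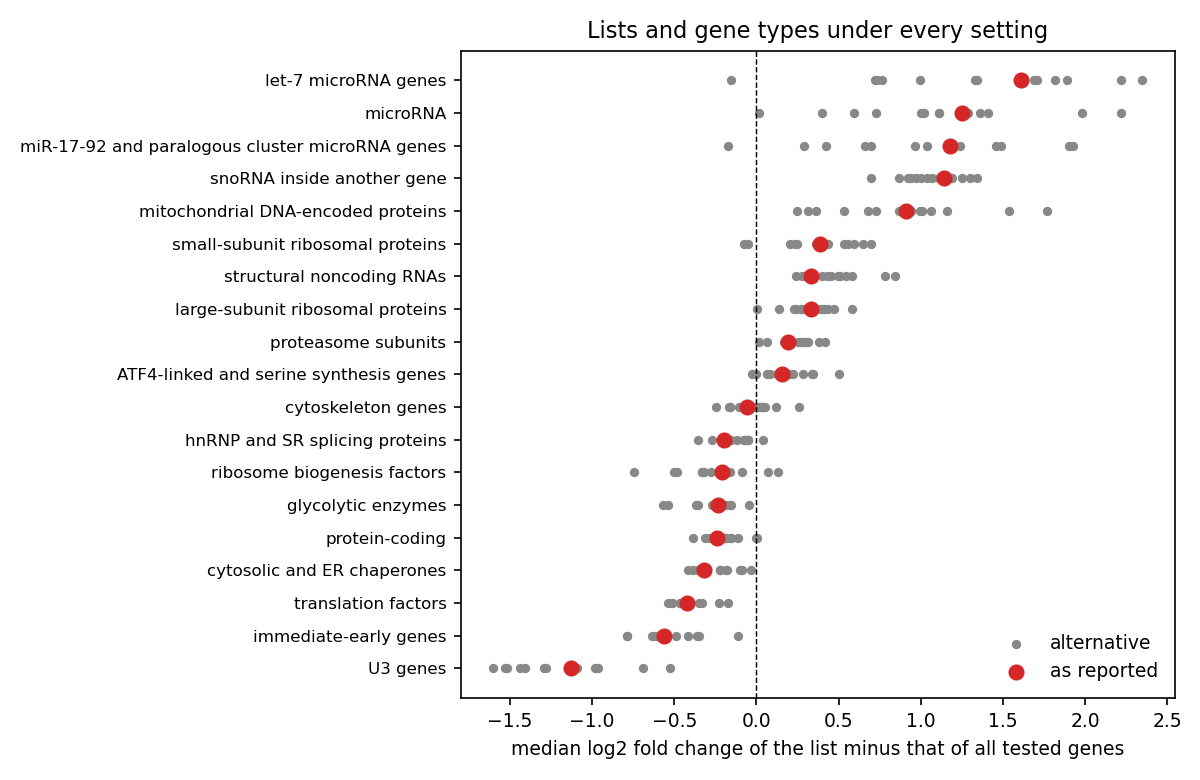
Median log2 fold change of each gene list or kind of gene minus the median of all genes tested (horizontal axis), for the analysis as reported and for each alternative as separate points. Translation factors stay below 0, and the ribosomal protein lists come to within 0.08 of 0 when actD replicate 3 and DMSO replicate 1 are left out.

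Footprint and RNA changes were compared over 806 protein-coding genes that passed both filters. The 2 log2 fold changes had the same sign in 511 genes (63.4%), with a Pearson r of 0.366 and a Spearman rho of 0.416 across genes. These values describe 1 set of genes, which are not independent replicates. The spread of the footprint changes, an SD of 0.61, was over the 0.28 of the RNA changes.

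**Figure D5:**
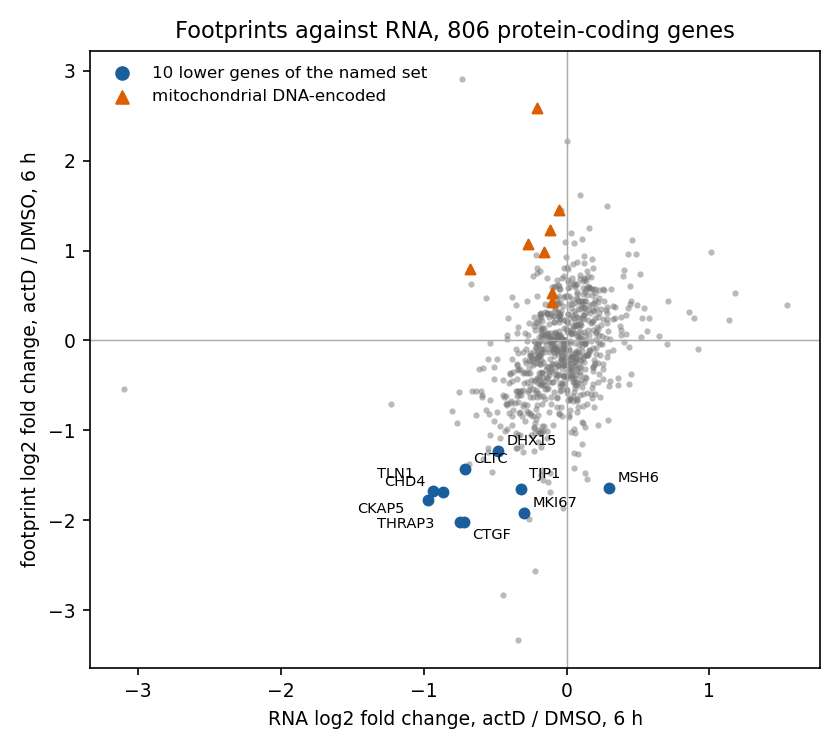
Log2 fold change in footprints (vertical axis) against RNA (horizontal axis) at 6 h for 806 protein-coding genes (grey points), with the 10 lower genes named in blue and genes of mitochondrial DNA as triangles. Of the 10 lower genes 9 lie left of 0 in RNA with MSH6 at 0.30, and the mitochondrial genes lie above 0 in footprints and below 0 in RNA.

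The lower genes were mostly long. Their longest annotated transcripts ran from 2339 bases (CTGF) to 12678 bases (MKI67), with TLN1 at 8823, CLTC at 8587, TJP1 at 7950, MSH6 at 7476 and CKAP5 at 7121. When the 810 genes were ordered by this length and split into 3 sets of 270, the median footprint log2 fold change was 0.02 in the shortest set (312 to 3032 bases), -0.17 in the middle set and -0.23 in the longest set (5244 to 24828 bases). Separate groups below DMSO numbered 7, 15 and 40 in that order, against 7.65% of the 810 genes. Separate groups above DMSO numbered 5, 6 and 10, against 2.59%. RNA medians of the same genes were 0.01, -0.07 and -0.09, the same order over a smaller range. Without actD replicate 3 the footprint medians were -0.30, -0.40 and -0.35, and without both libraries that stood apart they were -0.44, -0.48 and -0.52. This split was made after the lower genes were seen and is a description.

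A test of the difference between times asked whether the actD effect on footprints at 72 h differed from that at 6 h. Of 3012 genes tested edgeR called 0 (0%), with 197 at an unadjusted p under 0.05 (6.54%). At 72 h alone, in separately prepared tables, 92 of 2426 genes were called (3.79%). CTGF, 1 of the 10 lower genes at 6 h, was at 1.55 at 72 h, and the difference of 3.66 ± 1.15 (SE) had an edgeR adjusted p of 0.733. RNA5SP214, 1 of the 10 higher genes, was at -2.14 at 72 h, with a difference of -3.22 ± 0.82 (SE; edgeR adjusted p = 0.733). MKI67 was at -0.69 at 72 h and CLTC at -3.25. Of the 10 higher genes 4 were tested at 72 h, 3 were above 0 and 0 were called. SnoRNAs were above 0 at 72 h in 16 of 24 tested, against 52.8% of all genes there, with a median of 0.72.

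Markers of the cell line were checked against the label. Of 15 markers of Wilms tumor and nephron progenitors, 4 had footprint counts: IGF2, a growth factor of fetal kidney and Wilms tumor, had 279 over the 6 libraries, NCAM1 30, LIN28B 7 and WT1 2. IGF2 had 35.1, 116 and 115 CPM with actD and 83.6, 72.7 and 76.1 CPM with DMSO. In RNA at 6 h IGF2 had 1250 to 2360 CPM and LIN28B 184 to 281 CPM, while SIX2 stayed at or below 0.514 CPM and PAX8 at or below 0.173 CPM. All 14 markers of blood, endothelium, liver, muscle and mature nephron were at 0 in the footprints, as were 11 of the 15 Wilms tumor markers. In RNA, DES, an intermediate filament of muscle, had 6.62 to 8.93 CPM and VWF, a clotting factor of endothelium, at most 1.24 CPM.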

How the data were processed

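Gene tables of the 6 footprint libraries at 6 h were used, with those of RNA at 6 h and of footprints at 72 h and 2 weeks for comparison. Their values are estimated counts per gene, whole numbers made by the authors from each library and not normalized; HISAT2, StringTie and hg38 are named in the submitters' processing notes, while versions, annotation and the use of strand are not given in the sources used here. Per the labels' protocols, rRNA was depleted from the footprints before their libraries were made by a method for small RNA. Genes that overlap or lie antisense, and near-identical copies, are therefore uncertain. Each column was matched to a sample by its name, and 0 other value columns were present. Gene IDs were matched to GENCODE release 29 (99.4% of 43582 IDs, 93.5% with the version), which gave symbols, kinds of gene and GRCh38 positions.

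Counts were tested with edgeR 4.0.16 in R 4.3.3 (TMM factors, filterByExpr, quasi-likelihood test, two-sided), with Benjamini-Hochberg adjustment over all genes tested and calls at an adjusted p under 0.05. TMM factors ran from 0.383 to 2.35. Translational efficiency was the assay-by-treatment term over 12 libraries, and the 72 h comparison the time-by-treatment term. Class shares were compared by exact permutation. DESeq2 1.42.0, library totals, other filters, gene subsets, a replicate block and leaving out libraries were alternatives, and scripts were tested on simulated data. Leaving out actD replicate 3 with DMSO replicate 1, and the microRNA share as a covariate, were chosen after seeing the data. No libraries were duplicates: chi-square per degree of freedom between replicates was 52.4 to 270. Tests were unpaired.

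The genes described are, of those tested, the 10 higher and 10 lower with the smallest unadjusted p among genes with separate groups and a mean of at least 20 counts; the genes with the most counts of each class (10 protein-coding, 10 microRNA, 5 snoRNA, 3 snRNA and all rRNA genes); and up to 4 tested members of each gene list with the highest mean CPM. From these, and for single genes chosen after their values were seen, the text gives those that carry a result. The comparisons and lists were chosen with earlier results of these data known. RNA tables of 72 h and 2 weeks were not used here.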

Additional observations from a re-analysis of the deposited data

How the results depend on the processing

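Depth limited what the footprints could show: few protein-coding genes passed the filter, and the spread between replicates was wide (biological coefficient of variation 0.797). Calls at 6 h numbered 0 in footprints under every alternative except DESeq2 (10) and the omission of actD replicate 3 with DMSO replicate 1 (1), and 0 with each single library left out. The smallest adjusted p ranged over these alternatives from 0.00183 to 1. Translational efficiency calls numbered 0 as reported, 1 with DESeq2, 4 without both those libraries, and 0 to 5 with single libraries left out. Calls of a difference between 72 h and 6 h numbered 0 as reported and 5 with DESeq2. RNA calls at 6 h numbered 0 as reported, 197 with DESeq2 and 0 to 6 with single libraries left out. With the replicate number as a block footprint calls stayed at 0, with 12 genes at an unadjusted p under 0.05 in place of 38, and the block changed no count of calls. Deviations from the group means correlated at r of -0.71, -0.04 and -0.75 between same-numbered actD and DMSO footprint libraries, so the numbers do not pair them. Between libraries of different number r reached 0.823 (actD replicate 3 with DMSO replicate 1), 0.637 (actD 1 with DMSO 2), 0.552 (actD 1 with DMSO 3) and 0.413 (actD 2 with DMSO 3), and no such pairing was fitted. Of counts outside microRNA genes the actD minus DMSO difference was 0.592 percentage points for snoRNA, in place of 0.0622, and 0.0595 for miscellaneous RNA, in place of 0.000268.

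Among single genes the log2 fold change of MT-CO3 was -0.0939 with library totals, and it ranged from -0.213 (without DMSO replicate 1) to 1.66 with single libraries left out. Without both libraries that stood apart RPS13 was at -0.234 and PSMA3 at -0.0832. With single libraries left out MIRLET7A1 ranged from -3.05e-05 to 2.54, SNORA73B from -0.943 to 3.27, SNORD3A from -1.51 to 0.0466, and MIR148A from -0.0966 to 2.41. The causes were not tested. Of the other values for single genes 648 kept their direction and side of the threshold and 10 passed it only under an alternative. Of list medians 219 moved by less than the spread and 15 by more.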
